A study of Mus musculus with 6 samples.

Results

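The genes described here are 10 genes of arginine and polyamine metabolism, out of 51826 gene rows in the deposited table. They were chosen by name: the arginases Arg1 and Arg2, the inducible nitric oxide synthase Nos2, ornithine decarboxylase Odc1 with its regulators Azin1 and Oaz1, the synthesis enzymes Amd1, Srm and Sms, and the catabolic enzyme Sat1. Each symbol matched a row, and all 10 passed the filter on low counts. The libraries hold RNA of mouse bone marrow neutrophils that had been exposed to microvesicles, membrane particles shed by cells. The vesicles came from Hepa1-6, a mouse liver cancer cell line, and in both groups the donor cells had been deprived of glucose. In 3 libraries, called KD_MV, ezrin had been knocked down in the donor cells. In the other 3 libraries, called Ctrl_MV, the donor cells were wild type. The mouse strain, age, vesicle dose and exposure time are not given in the sources used here, nor is the way ezrin was knocked down. Fold changes are KD_MV over Ctrl_MV on a log2 scale.

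Arginine stands at a branch point in myeloid cells. Arginases split it into ornithine and urea, and nitric oxide synthase turns it into nitric oxide and citrulline. Ornithine decarboxylase makes the polyamine putrescine from ornithine, and further enzymes build spermidine and spermine from it. Antizyme, the product of Oaz1, binds ornithine decarboxylase and sends it to the proteasome. Arginase activity that depletes arginine is a known trait of suppressive myeloid cells in tumors. Transcript levels alone are reported here, and enzyme activity, much of which is set after transcription in this pathway, was not measured.

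Total counts ran from 37346055 to 42043434 per library. On the first principal component, with 80.9% of the variance, the groups separated, and KD_MV replicate 3 stood apart from the other KD_MV libraries on the second, with 7.5%. Among markers of the labelled cell type, transcripts of S100a8 (1453 to 2369 TPM in KD_MV, 1117 to 1509 TPM in Ctrl_MV) and S100a9 (2183 to 4581 TPM in KD_MV, 2717 to 3307 TPM in Ctrl_MV) were abundant. Those of Ly6g (3.68 to 4.55 TPM in KD_MV, 3.13 to 4.34 TPM in Ctrl_MV) and Cxcr2 (3 to 4.13 TPM in KD_MV, 3.79 to 4.49 TPM in Ctrl_MV) were scarce. The monocyte and macrophage markers Cd68 (1038 to 1660 TPM in KD_MV, 1057 to 1276 TPM in Ctrl_MV), Adgre1 (169 to 225 TPM in KD_MV, 270.2 to 324 TPM in Ctrl_MV) and Csf1r (114 to 136 TPM in KD_MV, 104 to 133 TPM in Ctrl_MV) were present at higher levels per length than Ly6g and Cxcr2. Hemoglobin transcripts took 1.03 to 1.18% of counts in KD_MV and 8.96 to 10.6% in Ctrl_MV, and with the hemoglobin genes left out of the counts the same 9 members were called as with them. Since these are bulk samples, fewer cells of a type and less RNA per cell cannot be told apart. Whether replicates are different mice or cultures is not stated in the labels, and the p-values cover the spread among the 6 libraries alone, which may be technical.

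The start regions of 5 of the 10 members were found in RefSeq (GRCm38.p6, the build named mm10 elsewhere), and 4 are shown because they belong to a pair of synthesis genes that were both higher in KD_MV (Amd1 and Sms), to the catabolic gene that was lower (Sat1) and to the rate-limiting synthesis gene, whose direction depended on scaling (Odc1). Each run is written 5′ to 3′ on the gene's strand and ends at or before the annotated start. Capitals mark matches, on either strand, to 4 short motifs. The E-box, which MYC binds together with MAX, was searched as CACGTG. The GC box was searched as GGGCGG, the CCAAT box by the letters of its name and the TATA box as TATANAA. The stretches are chr12:17544623-17544793 on the plus strand for Odc1, which stops where an annotated exon begins, and chr10:40302189-40302438, chrX:157492288-157492537 and chrX:155216450-155216699, all on the minus strand, for Amd1, Sms and Sat1.
Odc1: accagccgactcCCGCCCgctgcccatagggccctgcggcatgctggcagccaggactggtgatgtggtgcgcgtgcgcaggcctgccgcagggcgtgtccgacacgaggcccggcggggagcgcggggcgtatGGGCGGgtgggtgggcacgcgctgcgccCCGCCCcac
Amd1: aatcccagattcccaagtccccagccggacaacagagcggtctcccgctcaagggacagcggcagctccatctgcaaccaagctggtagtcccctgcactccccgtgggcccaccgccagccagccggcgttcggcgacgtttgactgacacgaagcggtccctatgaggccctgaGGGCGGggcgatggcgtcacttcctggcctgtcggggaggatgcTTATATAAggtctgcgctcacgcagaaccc
Sms: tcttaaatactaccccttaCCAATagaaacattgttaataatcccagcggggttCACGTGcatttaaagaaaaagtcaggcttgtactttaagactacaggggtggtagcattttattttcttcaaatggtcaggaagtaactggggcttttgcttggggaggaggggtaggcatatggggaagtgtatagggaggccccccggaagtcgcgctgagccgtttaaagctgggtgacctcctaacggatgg
Sat1: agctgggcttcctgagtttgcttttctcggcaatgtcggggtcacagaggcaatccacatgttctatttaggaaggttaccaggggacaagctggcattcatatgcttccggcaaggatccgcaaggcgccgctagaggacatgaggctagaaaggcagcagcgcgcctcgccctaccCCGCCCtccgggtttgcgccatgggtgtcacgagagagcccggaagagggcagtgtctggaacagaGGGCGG

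In the 250 bases before the annotated start, Sms had 1 E-box and 1 CCAAT box, and no E-box was found in the other 4 start regions. Sms has 2 start regions in RefSeq, of which the one farther upstream was searched and is shown. Amd1 had 1 GC box and a TATA box that reads the same way on both strands, so its matches on the 2 strands overlap. Sat1 had 2 GC boxes, and Odc1 had 4, of which 3 fall in the stretch shown. The start region of Oaz1 held 1 CCAAT box and is not shown. Of 32851 start regions of that length in RefSeq, 6.02% held the E-box, 32.7% the GC box, 33.8% the CCAAT box and 10.4% the TATA box. These are matches of letters in a window and were not tested as binding sites.

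Of the 10 members, 9 passed the test between KD_MV and Ctrl_MV (edgeR's quasi-likelihood test, Benjamini-Hochberg adjusted p under 0.05 over all 16071 genes tested). The background was 52.6% of tested genes called in either direction. Arg1, Nos2, Amd1, Srm and Sms were higher (5 of 10, against 27.8% of tested genes called higher), and Arg2, Odc1, Azin1 and Sat1 were lower (4 of 10, against 24.9% called lower). Of 12 neutrophil markers, 6 were lower in KD_MV with TMM scaling: Csf3r, Mmp9, Retnlg, Camp, Itgam and Cxcr2. Their log2 fold changes were -2.34 to -0.80. Ngp alone was higher (1.04), and S100a8, S100a9, Ly6g, Mmp8 and Ltf were not called. In TPM Mmp9, Retnlg and Camp stayed lower without overlap, and the groups overlapped for Csf3r, Itgam and Cxcr2. Ngp, Mmp8 and Ltf were higher in TPM without overlap, at 202 to 282 TPM in KD_MV and 131 to 137 TPM in Ctrl_MV for Mmp8. The 12 summed to 1972 to 2726 CPM in KD_MV and 2854 to 3212 CPM in Ctrl_MV, and their part in the members' values was not tested. The groups did not overlap in CPM (counts relative to library size, scaled with TMM factors) for any of the 10 members, Oaz1 included, where the background was 61.3% of tested genes. In TPM the groups overlapped for Azin1 and Oaz1. Odc1 was then higher in KD_MV, at 225 to 231 TPM against 187 to 215 TPM in Ctrl_MV. The median log2 fold change was 0.16 over the members and 0.03 over all tested genes. Scaling by library size alone raised the log2 fold change of the median gene by 0.40 and the share of calls that were higher to 78.8%, against 52.8% with TMM scaling, so each change below is relative to TMM scaling, and members near that size are named where they turned.

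**Figure D1:**
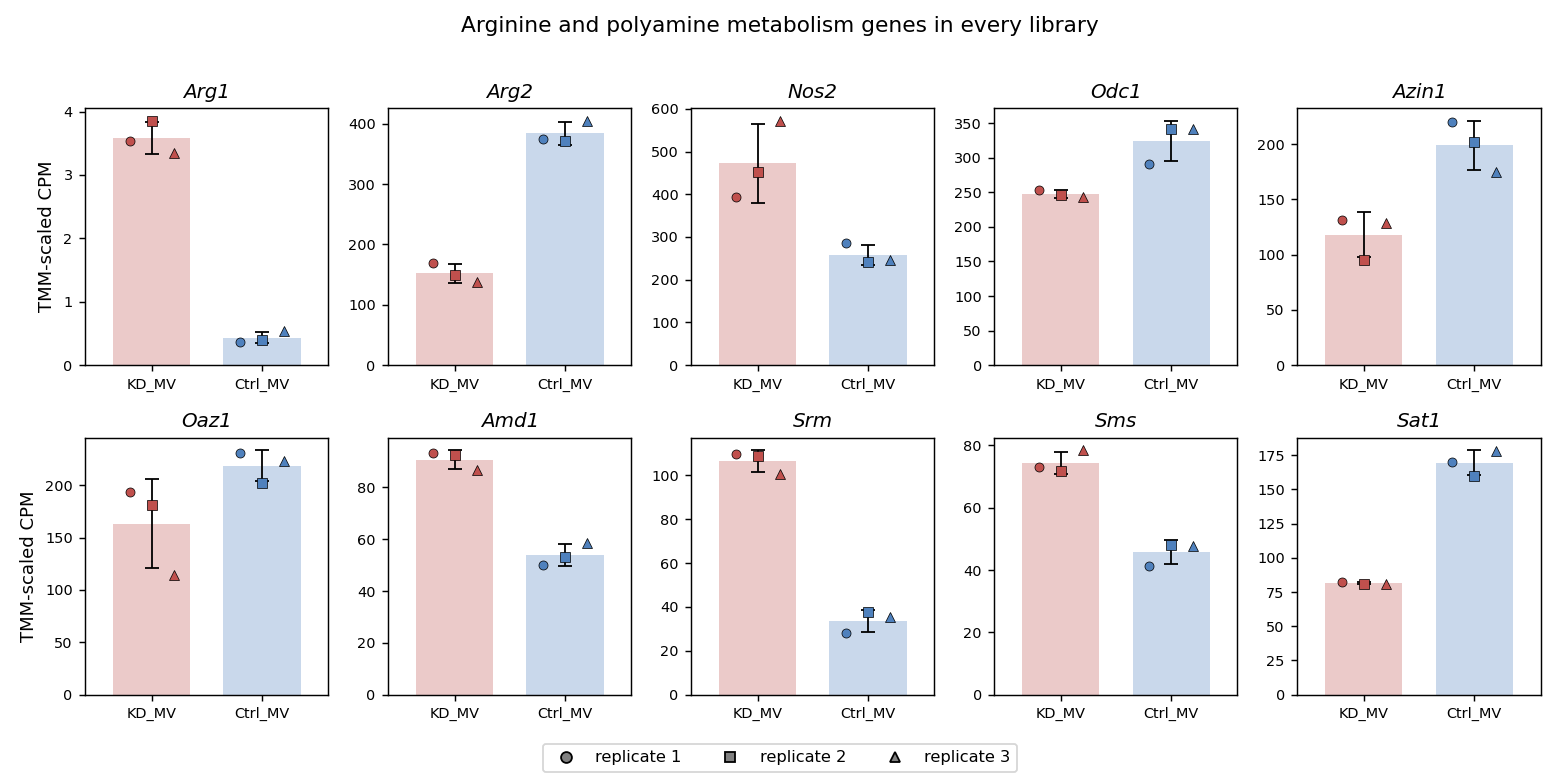
TMM-scaled CPM (vertical axis, starting at 0, a separate range for each gene) of the 10 members in each library of KD_MV and Ctrl_MV. Bars are means, error bars are SD (n = 3 per group) and symbols are replicates. Srm sits between 101 and 110 CPM in KD_MV, above the 28.1 to 37.6 CPM of Ctrl_MV, and the low point of Oaz1 at 114 CPM is KD_MV replicate 3.

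The arginases moved in opposite directions. Arg2, the mitochondrial arginase and by far the more abundant one here, was lower in KD_MV, and Arg1, the cytosolic arginase known from liver and from alternatively activated macrophages, was higher from a very low level. Arg2 (chromosome 12, 79130777 to 79156301, plus strand, mm10) had 169, 149 and 138 CPM in KD_MV replicates 1, 2 and 3, against 374, 372 and 405 CPM in Ctrl_MV replicates 1, 2 and 3. All KD_MV libraries lay far below all Ctrl_MV libraries. The log2 fold change was -1.34 ± 0.11 (SE), with an adjusted p of 2.13e-05, and -0.77 with limma on log2(TPM + 1), still called. Vti1b overlaps Arg2 on the opposite strand with 10422 counts in all, against 58758 for Arg2, and with no strand setting known for the counting, a part of either count is uncertain.

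Arg1 (chromosome 10, 24915221 to 24927484, minus strand) had 158, 172 and 160 counts, or 3.54, 3.86 and 3.35 CPM, in KD_MV replicates 1, 2 and 3. In Ctrl_MV replicates 1, 2 and 3 it had 12, 13 and 18 counts, or 0.371, 0.393 and 0.536 CPM. The gap between the groups was many times the spread within either. Its fold of 8.2 (log2 fold change 3.03 ± 0.23 (SE), adjusted p = 1.64e-05) was the largest among the members on counts. With limma on log2(TPM + 1) the difference of Arg1 was 2.07, still called, and that of Srm was larger, at 2.19. The added 1 exceeds the Ctrl_MV mean of Arg1, 0.402 TPM, and so shrinks the difference of Arg1 on that scale. In TPM, which divides by transcript length, Arg1 averaged 4.88 ± 0.389 in KD_MV and 0.402 ± 0.077 in Ctrl_MV, and Arg2 averaged 207 ± 17.1 in KD_MV and 352 ± 11.1 in Ctrl_MV (SD, n = 3 per group). Arg2 therefore remained the main arginase transcript in each of the 6 libraries.

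Several lists of markers for other cells also differed between KD_MV and Ctrl_MV. The background for the counts in each list was 27.8% of all tested genes called higher and 24.9% called lower. Of 12 monocyte and macrophage markers 10 were tested, 5 were higher and 2 lower, and the summed level was 1488 to 1719 CPM in KD_MV and 2111 to 2286 CPM in Ctrl_MV. The 2 lower ones were Adgre1 (log2 fold change -1.09, adjusted p = 1.97e-04) and Csf1r (-0.43, adjusted p = 0.0135), with TMM scaling. In TPM Adgre1 stayed lower without overlap. For Csf1r the groups overlapped, at 114 to 136 TPM in KD_MV and 104 to 133 TPM in Ctrl_MV, so its lower call is relative to TMM scaling. Among the 5 higher, C1qb, a complement gene of tissue macrophages, had 3.43 to 3.81 CPM in KD_MV and 0.279 to 0.545 CPM in Ctrl_MV. Cd68 and C1qa were not called, and Mertk and Mrc1 were too low to be tested. Of 9 eosinophil markers, all tested, 6 were higher and 0 lower, and their sum was 472 to 654.5 CPM in KD_MV and 30.3 to 33.1 CPM in Ctrl_MV. The 6 were Epx, Prg2, Prg3, Ear1, Ear2 and Ear6, and Siglecf, Ccr3 and Il5ra were not called. Of 6 neutrophil precursor genes 5 had a row and were tested, all 5 were higher, and they summed to 37.3 to 47.6 CPM in KD_MV and 6.81 to 7.18 CPM in Ctrl_MV. B cell markers were higher in 6 of 7 cases, with sums of 1782 to 1904 CPM in KD_MV and 853 to 1053 CPM in Ctrl_MV. The part of any of these cells in the values of Arg1, the other members or the pathway genes below was not tested. Of 10 hepatocyte and hepatoma markers 3 could be tested, and 2 were lower, Afp and Alb. Afp had 6.12 to 9.12 CPM in KD_MV and 21.9 to 33.8 CPM in Ctrl_MV (log2 fold change -1.78, adjusted p = 1.54e-04). Alb stayed below 1 CPM in every library (-1.35, adjusted p = 0.0166), and Trf was not called. Serpina1a, Fgb, Ahsg and Cps1 had 0 counts in every library.

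Nos2 was higher in KD_MV. The gene encodes the inducible nitric oxide synthase, which competes with the arginases for arginine. Nos2 (chromosome 11, 78920787 to 78960254, plus strand) had 392, 452 and 572 CPM in KD_MV replicates 1, 2 and 3, against 286, 242 and 246 CPM in Ctrl_MV replicates 1, 2 and 3. The KD_MV libraries differed among themselves more than the Ctrl_MV libraries did, with replicate 3 the highest, and none fell into the Ctrl_MV range. The log2 fold change was 0.87 ± 0.15 (SE), with an adjusted p of 0.00124, 0.70 without KD_MV replicate 3 and 1.41 with limma on log2(TPM + 1), called in each. Its TPM averaged 220 ± 45.1 in KD_MV and 81.2 ± 9.58 in Ctrl_MV (SD, n = 3 per group), at rank 3 of the members in KD_MV and rank 5 in Ctrl_MV.

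Ornithine decarboxylase and its 2 regulators were the 3 members whose direction or call changed with the scaling. Odc1, the first and rate-limiting enzyme of polyamine synthesis (chromosome 12, 17544794 to 17551505, plus strand), had 253, 246 and 243 CPM in KD_MV replicates 1, 2 and 3, against 291, 342 and 341 CPM in Ctrl_MV replicates 1, 2 and 3. The KD_MV libraries were close to each other, and the nearest Ctrl_MV library was replicate 1. The log2 fold change was -0.39 ± 0.10 (SE), with an adjusted p of 0.0102. Scaled by library size alone it was 0.01 (adjusted p = 0.926), and with limma on log2(TPM + 1) the difference was 0.16 (adjusted p = 0.173), so the lower call for Odc1 holds only relative to TMM-type scaling. Its TPM values were 227, 231 and 225 in KD_MV and 187, 215 and 211 in Ctrl_MV.

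Azin1 encodes the antizyme inhibitor, a relative of ornithine decarboxylase without enzyme activity that binds antizyme in its place. Azin1 (chromosome 15, 38487430 to 38519266, minus strand) had 131, 94.7 and 129 CPM in KD_MV replicates 1, 2 and 3, against 220, 202 and 175 CPM in Ctrl_MV replicates 1, 2 and 3. KD_MV replicate 2 was the lowest library, and the groups did not overlap in CPM. In TPM they did, at 47.2 to 65.8 TPM in KD_MV and 54.7 to 72.4 TPM in Ctrl_MV. The log2 fold change was -0.75 ± 0.15 (SE), with an adjusted p of 0.00256. The call was lost with library size only (-0.35, adjusted p = 0.0583) and with limma on log2(TPM + 1) (-0.14, adjusted p = 0.464).

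Oaz1, antizyme itself (chromosome 10, 80826656 to 80829290, plus strand), had 194, 181 and 114 CPM in KD_MV replicates 1, 2 and 3, against 230.4, 202 and 223 CPM in Ctrl_MV replicates 1, 2 and 3. KD_MV replicate 3 was far below the rest, and replicates 1 and 2 lay just under the Ctrl_MV range. Oaz1 was the one member without a call, at -0.42 ± 0.18 (SE) on the log2 scale with an adjusted p of 0.0803. It passed with DESeq2 (-0.45, adjusted p = 0.036) and without KD_MV replicate 1 (-0.57, adjusted p = 0.0379), it was -0.23 without KD_MV replicate 3 (adjusted p = 0.0674), and limma on log2(TPM + 1) gave 0.08 (adjusted p = 0.764). The processed pseudogene Oaz1-ps, with 4367 counts against 43765 for Oaz1, had 20.4, 17.8 and 11.3 CPM in KD_MV and 24, 17.9 and 22.6 CPM in Ctrl_MV, so reads may be split between the copies.

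**Figure D2:**
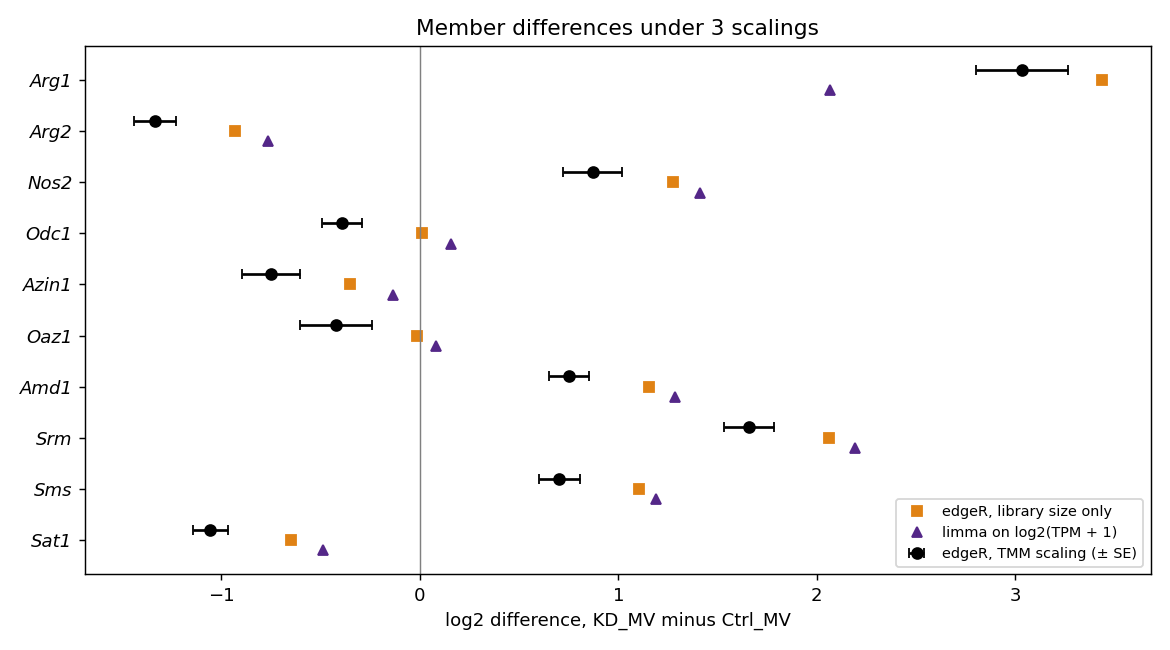
Log2 difference of each member, KD_MV minus Ctrl_MV (horizontal axis), from edgeR with TMM scaling (circles, error bars are SE), edgeR with library size only (squares) and limma on log2(TPM + 1) (triangles). Odc1 lies at -0.39, 0.01 and 0.16 under the 3 settings, whereas Srm, Amd1, Sms, Nos2 and Arg1 stay above 0 and Arg2 and Sat1 below it.

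The 3 enzymes that build spermidine and spermine were higher in KD_MV. Srm, spermidine synthase, which adds an aminopropyl group to putrescine, rose the most. Srm (chromosome 4, 148591503 to 148594993, plus strand) had 110, 109 and 101 CPM in KD_MV replicates 1, 2 and 3, against 28.1, 37.6 and 35.6 CPM in Ctrl_MV replicates 1, 2 and 3. The libraries of each group were tight and far apart from the other group. The log2 fold change was 1.66 ± 0.13 (SE), a fold of 3.15, with an adjusted p of 1.63e-05.

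Amd1 encodes adenosylmethionine decarboxylase, which supplies the aminopropyl groups. Amd1 (chromosome 10, 40287458 to 40302186, minus strand) had 93.3, 92.4 and 86.6 CPM in KD_MV replicates 1, 2 and 3, against 50.2, 53.2 and 58.4 CPM in Ctrl_MV replicates 1, 2 and 3. No library of either group came near the other (log2 fold change 0.75 ± 0.10 (SE), adjusted p = 3.01e-04). Amd2, a near-identical copy of it, had 9.93, 10.2 and 8 CPM in KD_MV and 6.41, 4.99 and 5.51 CPM in Ctrl_MV, and passed with 0.73 on the log2 scale (adjusted p = 0.00474). The 2 loci can share reads, so how the counts divide between them is uncertain.

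Sms, spermine synthase, carries the chain from spermidine to spermine. Sms (chromosome X, 157443855 to 157492287, minus strand) had 72.9, 71.7 and 78.5 CPM in KD_MV replicates 1, 2 and 3, against 41.4, 47.9 and 47.9 CPM in Ctrl_MV replicates 1, 2 and 3. The size of its difference was close to that of Amd1, at 0.70 ± 0.10 on the log2 scale (SE, adjusted p = 5.38e-04). Under every alternative run, Srm, Amd1 and Sms stayed called and higher, with log2 differences of 1.54 to 2.19, 0.70 to 1.29 and 0.63 to 1.19.

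Sat1 was lower in KD_MV. It encodes spermidine/spermine acetyltransferase, the first step of polyamine breakdown and export. Sat1 (chromosome X, 155213132 to 155216449, minus strand) had 82.6, 81.2 and 81 CPM in KD_MV replicates 1, 2 and 3, against 170, 160 and 178 CPM in Ctrl_MV replicates 1, 2 and 3. The 3 KD_MV libraries were nearly equal and at about the middle between 0 and the Ctrl_MV values. The log2 fold change was -1.06 ± 0.09 (SE), with an adjusted p of 2.78e-05, and it ran from -1.10 to -0.49 over the alternatives, called in each.

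Ratios of 2 members within a library do not depend on scaling between libraries, though they do depend on the lengths behind the TPM. The TPM of Odc1 over that of Sat1, the entry to synthesis over the entry to breakdown, was 1.71, 1.71 and 1.72 in KD_MV replicates 1, 2 and 3, against 0.979, 1.22 and 1.09 in Ctrl_MV replicates 1, 2 and 3. All KD_MV ratios were higher (log2 difference 0.65, exact two-sided permutation p = 0.1, adjusted over 3 ratios 0.15). Sms over Srm was 0.25, 0.253 and 0.295 in KD_MV and 0.589, 0.487 and 0.513 in Ctrl_MV, so every KD_MV ratio was lower (log2 difference -0.99, exact two-sided permutation p = 0.1, adjusted 0.15). Azin1 over Oaz1 was 0.154, 0.115 and 0.256 in KD_MV and 0.201, 0.213 and 0.167 in Ctrl_MV. Here the groups overlapped, and KD_MV held both the highest and the lowest value (log2 difference -0.22, exact two-sided permutation p = 0.6, adjusted 0.6). With 3 libraries against 3 the smallest p possible is 0.1, so no ratio could pass.

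**Figure D3:**
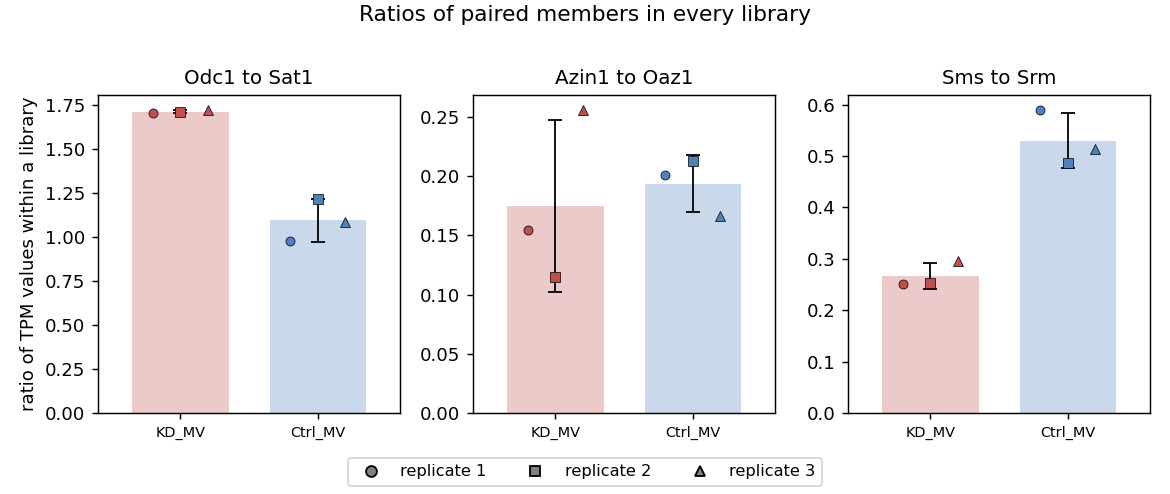
Ratio of the TPM values of 2 members within each library (vertical axis, starting at 0) for Odc1 over Sat1, Azin1 over Oaz1 and Sms over Srm, in KD_MV and Ctrl_MV. Bars are means, error bars are SD (n = 3 per group) and symbols are replicates. The KD_MV ratios of Odc1 to Sat1 lie at 1.71 to 1.72, above those of Ctrl_MV at 0.979 to 1.22, and the Azin1 to Oaz1 ratios overlap.

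By TPM, which allows levels of different genes to be compared, the order from high to low in KD_MV was Oaz1, Odc1, Nos2, Arg2, Srm, Sat1, Azin1, Amd1, Sms and Arg1. The ranges of Odc1 and Nos2, of Nos2 and Arg2, and of Azin1 and Amd1 overlapped there. In Ctrl_MV the order was Arg2, Oaz1, Odc1, Sat1, Nos2, Azin1, Srm, Amd1, Sms and Arg1, with overlaps between Arg2 and Oaz1 and between Odc1 and Sat1. Oaz1 averaged 358.5 ± 104 TPM in KD_MV and 329 ± 29.7 TPM in Ctrl_MV, and Srm averaged 158 ± 7.88 TPM in KD_MV and 34 ± 4.47 TPM in Ctrl_MV (SD, n = 3 per group). Over the 6 libraries, the 5 genes with at least 5 CPM whose log2 CPM was most like that of Odc1 were Eif1b, Mdfic, Il10rb, Smim19 and Mrpl24 (Pearson r of 0.991 to 0.999 among 10150 genes). These points share the group difference and the scaling, so the likeness is a description only.

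Beyond the 10 members, 53 other genes of the pathway were listed by role, of which 44 were tested, 23 were higher, 11 were lower and 10 were not called, where 27.8% of all tested genes were called higher and 24.9% lower. Their median log2 fold change was 0.43, and that of all tested genes 0.03. The shares of 27.8% and 24.9% are also the background for the counts by role below. The 53 genes were listed with earlier results of these data known, so these counts are a description only. With library size only 28 were higher and 8 lower, and with limma on log2(TPM + 1) 28 were higher and 6 lower. Among the genes of arginine transport 2 of 7 were higher and 4 lower. Slc7a1, the general cationic amino acid carrier, had 64, 61.1 and 67.2 CPM in KD_MV and 284.7, 262 and 231 CPM in Ctrl_MV, with no overlap (log2 fold change -2.02 ± 0.11 (SE), adjusted p = 2.98e-06). Slc7a3, a related carrier, fell by 4.93 on the log2 scale (adjusted p = 3.48e-07), and Slc25a15, which moves ornithine into mitochondria, was higher by 2.06 (adjusted p = 4.34e-05). With library size only, 2 transport genes were higher and 2 lower.

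Of the 5 genes that make arginine or belong to the urea cycle, 2 were tested. Ass1, which joins citrulline and aspartate on the way back to arginine, rose to 47.5, 51.3 and 54.2 CPM in KD_MV, against 28.8, 23.5 and 25.4 CPM in Ctrl_MV (log2 fold change 0.98 ± 0.12 (SE), adjusted p = 1.62e-04). Asl, the next enzyme, was not called (-0.18, adjusted p = 0.259; 0.46 with limma on log2(TPM + 1), adjusted p = 0.0266), and Otc, Cps1 and Nags had 0 counts in every library. The other nitric oxide synthases, Nos1 and Nos3, were too low to be tested. Among genes that control the synthases 3 of 5 tested genes were higher and 1 was lower. The lower count was 2 with DESeq2, limma-voom, RLE scaling, the hemoglobin genes left out or KD_MV replicate 3 left out. It was 0 with limma on log2(TPM + 1). Qdpr, which regenerates the cofactor tetrahydrobiopterin, was higher by 2.14 (adjusted p = 1.02e-04) and Ddah2, which breaks down methylated arginines that inhibit the synthases, by 0.96 (adjusted p = 0.00257). Pts, which acts in making the same cofactor, was lower (-1.15, adjusted p = 2.16e-05; -0.16 with limma on log2(TPM + 1), adjusted p = 0.46).

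Among the genes that link ornithine, glutamate and proline, which include Prodh, the enzyme that breaks proline down, 2 of 6 were higher and 2 lower. Pycr1 (-2.30, adjusted p = 2.14e-05) and Aldh18a1 (-1.09, adjusted p = 3.95e-05) fell, and Pycr3, listed in the table under its older name Pycrl, rose (1.44, adjusted p = 1.36e-04). Leaving out KD_MV replicate 3 gave 4 higher and 2 lower of these 6, with Oat and Prodh added. Gatm, the first enzyme of creatine synthesis, which uses arginine, had 12.6, 12.2 and 13.5 CPM in KD_MV and 0.712, 0.726 and 1.46 CPM in Ctrl_MV (log2 fold change 3.72 ± 0.26 (SE), adjusted p = 1.15e-05). Gamt, the next enzyme, also rose (1.89, adjusted p = 0.00651), at 20 to 30 counts in KD_MV and 3 to 7 counts in Ctrl_MV.

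Among the remaining genes of polyamine synthesis and its control 4 of 7 were higher and 0 lower, or 6 higher with library size only. Myc, the transcription factor known to act on Odc1 in other cells, had 79.2, 81.8 and 150.4 CPM in KD_MV and 35, 48.9 and 52.4 CPM in Ctrl_MV (log2 fold change 1.19 ± 0.26 (SE), adjusted p = 0.00452). KD_MV replicate 3 was again the extreme library. Azin2, a relative of Azin1, rose from a low level (1.98, adjusted p = 0.00121). For polyamine oxidation, acetylation and transport, 2 of 6 tested genes were higher and 4 lower, or 2 higher and 3 lower with library size only. Smox, spermine oxidase, had 49.5, 47.6 and 48.8 CPM in KD_MV and 162, 155 and 169 CPM in Ctrl_MV (log2 fold change -1.74 ± 0.09 (SE), adjusted p = 2.46e-06), so it fell beside Sat1. Slc3a2, a transporter subunit also known for polyamine export, fell (-1.98, adjusted p = 3.12e-06). Paox, the oxidase of acetylated polyamines, rose (1.43, adjusted p = 1.27e-04), and it overlaps Echs1 on the opposite strand, which has more counts, so its value is uncertain.

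All 5 genes of methylthioadenosine salvage, which recycles the by-product of Srm and Sms to methionine, were tested and higher, where 27.8% of all tested genes were called higher. These 5 genes too were listed with earlier results of these data known. They were also called higher without KD_MV replicate 3, with library size only and with limma on log2(TPM + 1), and under these last settings 78.8% and 86.3% of all calls were higher. Mtap, the first of them, had 48.9, 42.5 and 44.1 CPM in KD_MV and 6.87, 8.53 and 8.97 CPM in Ctrl_MV (log2 fold change 2.47 ± 0.14 (SE), adjusted p = 3.28e-06). Mri1 (1.38, adjusted p = 6.98e-05) and Adi1 (1.29, adjusted p = 6.53e-05), further steps of it, followed. Of the 4 genes around hypusine, the amino acid that spermidine forms in the translation factor eIF5A, 2 were higher and 0 lower, or 3 higher with library size only and 4 with limma on log2(TPM + 1). Eif5a had 669, 623 and 573 CPM in KD_MV and 316, 333 and 299 CPM in Ctrl_MV (log2 fold change 0.98 ± 0.10 (SE), adjusted p = 8.71e-05), and Eif5a2 rose as well (1.06, adjusted p = 0.00257). Dhps, which starts the modification, was not called (-0.27, adjusted p = 0.113). It turned to 0.13 with library size only (adjusted p = 0.416) and passed as higher with limma on log2(TPM + 1) (0.27, adjusted p = 0.044). Wdr83 overlaps it on the opposite strand with 3494 counts, against 6556 for Dhps, so its value is uncertain.

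**Figure D4:**
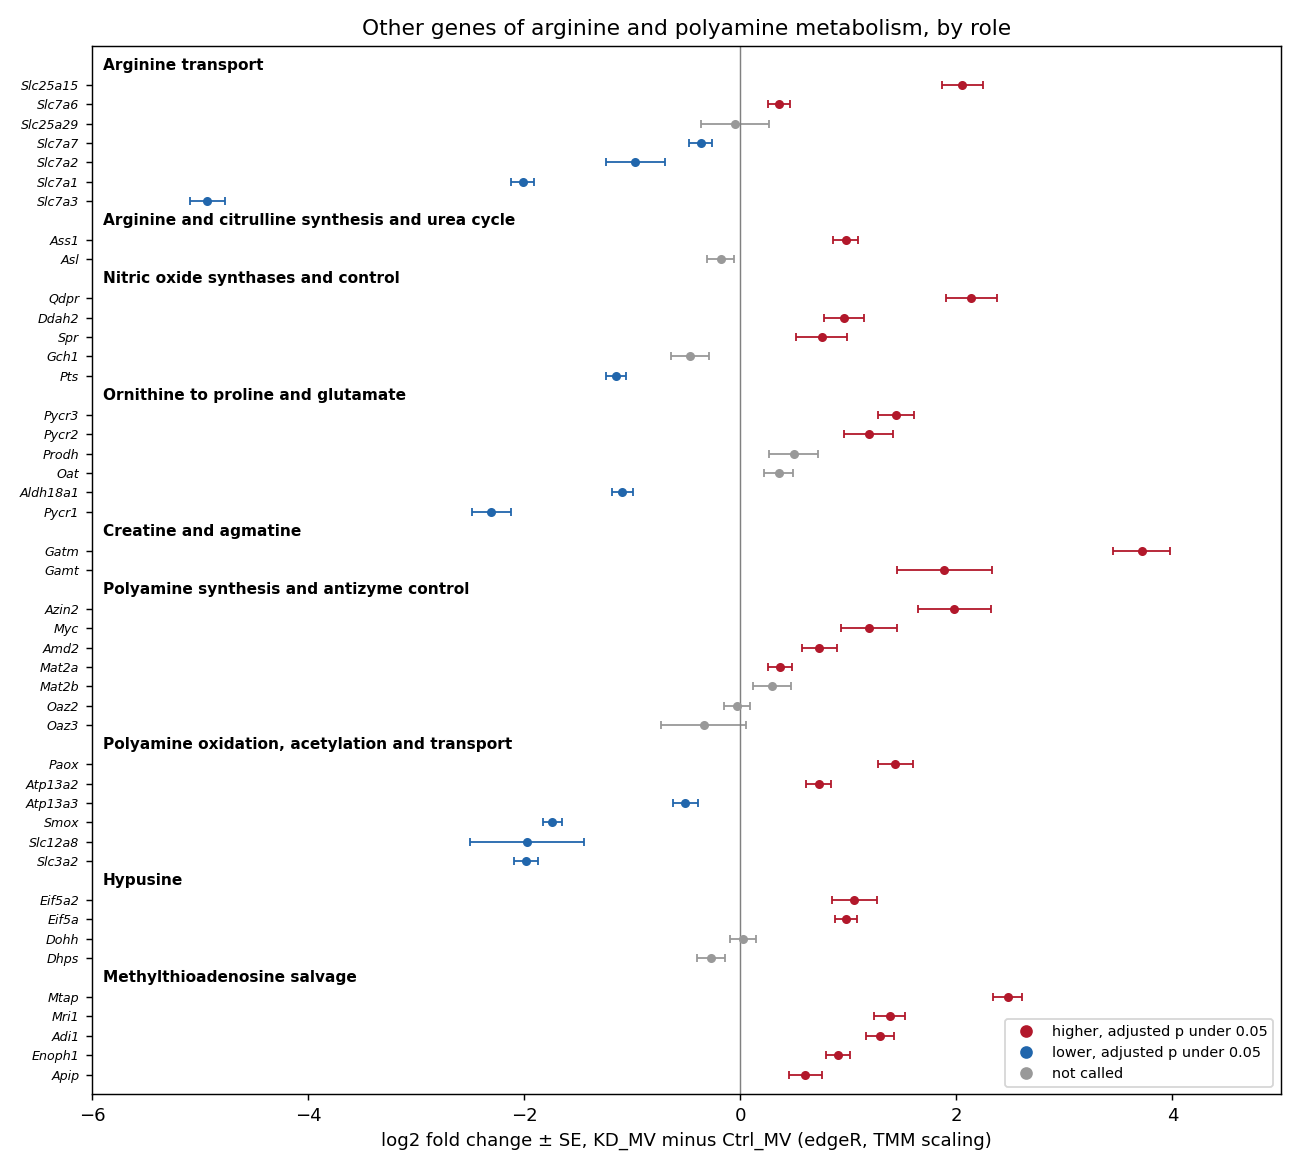
Log2 fold change ± SE (horizontal axis, KD_MV minus Ctrl_MV, edgeR with TMM scaling) of the 44 tested genes of arginine and polyamine metabolism outside the 10 members, by role. Red marks genes called higher (23), blue genes called lower (11) and grey genes not called (10), and all 5 genes of methylthioadenosine salvage lie to the right of 0.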

How the data were processed

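Stranded mRNA libraries were made from total RNA, 3 per group. Per the submitters' processing notes, Trim Galore, Subread and featureCounts were run against mm10, and their versions, annotation release and strand setting are unknown here. For each of 51826 gene rows the deposited table gives, per the file headers, Count, TPM and FPKM columns. The deposited counts are whole numbers, not normalized. The deposited TPM were computed by the authors and sum to 999842 to 999905 per library. The deposited FPKM served only to work out implied gene lengths.

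edgeR 4.0.16 (R 4.3.3) gave the tests on counts: filterByExpr (min.count 10, min.total.count 15), then TMM, then the quasi-likelihood F test, two-sided, with Benjamini-Hochberg adjustment over 16071 genes and a threshold of 0.05. The SE was taken as the size of the log2 fold change divided by the root of F. Alternatives used limma 3.58.1 (voom, or log2(TPM + 1) for genes with a mean TPM of at least 1) and DESeq2 1.42.0, other scalings and filters, and each library left out in turn. Where a symbol had several gene IDs, the one with the most counts was used. The pipeline was tested on simulated data with few changed genes and no difference in composition between groups, so that run does not bear on the choice of scaling. Libraries of one group differed by far more than sampling noise (chi-square over its degrees of freedom 20.3 to 97.8). Named outside the members were, per role, the 3 tested genes with the smallest p. Oat, Prodh, C1qb and the cell type markers listed by their call were named after their values were seen. The members and lists were chosen with earlier results of these data known. Megakaryocyte and platelet markers were higher in 5 of 6 cases, and erythroid markers lower in 10 of 12. T and NK cell markers were higher in 1 and lower in 1 of 6 cases. Beside these marker counts, 27.8% of all tested genes were called higher and 24.9% lower.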

Additional observations from a re-analysis of the deposited data

How the results depend on the processing

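Over 18 alternatives, the number of members called was 7 with library size only and with limma on log2(TPM + 1), and 9 or 10 otherwise. Counts of called genes and of called pathway genes stayed within 1.5 times the reported ones. Arg1, Arg2, Nos2, Amd1, Srm, Sms and Sat1 kept direction and call in all 18. Odc1 turned to 0.012 with library size only and to 0.16 with limma on log2(TPM + 1), and Oaz1 turned to 0.0798 with limma on log2(TPM + 1). The cause was not tested. Without KD_MV replicate 2 the log2 difference of the Azin1 to Oaz1 ratio turned to 0.0447. Over the libraries left out in turn it ran from -0.53 to 0.04. Halved counts, added after seeing the data because even values made up 54.45 to 55.58% of counts between 1 and 100, kept all member calls. With a replicate block, 7830 genes and 9 members were called. Same-numbered libraries did not deviate together (r from -0.114 to -0.021), and differently numbered pairs had r from -0.068 to 0.118. With 3 libraries per group these values cannot decide whether same-numbered libraries share an origin. Arg1, Gamt and Azin2 (6 to 12 counts in Ctrl_MV for Azin2) rest on few counts, which limits their precision.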

Other observations

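The gene length implied by the deposited counts and FPKM was not fixed. For Azin1 it was 4340, 4569 and 4712 bases in KD_MV replicates 1, 2 and 3, and 4646, 4702 and 4652 bases in Ctrl_MV replicates 1, 2 and 3. For Oaz1 it was 988, 1004 and 1074 bases in KD_MV replicates 1, 2 and 3, and 981, 1000 and 989 bases in Ctrl_MV replicates 1, 2 and 3. Over the 10 members the longest implied length was 1.011 to 1.095 times the shortest. For Odc1 the lengths were 2434, 2424 and 2418 bases in KD_MV and 2378, 2366 and 2353 bases in Ctrl_MV, without overlap.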
